A study of Mus musculus with 96 samples.

Results

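The cytosolic ribosomal protein genes encode the proteins of the ribosome that works in the cytoplasm. They were taken as the protein-coding genes with a symbol made of Rps or Rpl and a number, with at most an ending a, l or x, or with the symbol Rplp0, Rplp1 or Rplp2. This rule found 79 of the 55335 gene identifiers in the count table. Of these, 30 encode small-subunit proteins (Rps), 46 large-subunit proteins (Rpl) and 3 the proteins of the stalk of the large subunit (Rplp). The pseudogenes Rps4l, Rpl6l and Rpl32l match the pattern and were left out. The rule used no measured value.

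Ribosomal proteins are made in matched amounts and are joined to ribosomal RNA in the nucleolus. Their messages mostly begin with a run of pyrimidines, the 5′ terminal oligopyrimidine tract, through which the kinase complex mTORC1 controls their translation. Most of these messages lie in the cytoplasm, so RNA inside nuclei is the share that is being transcribed, spliced or exported. Sorted nuclei can also carry RNA from outside the nucleus, and the mitochondrially encoded counts given below are of that kind. In neurons, ribosomal proteins support the protein synthesis that follows activity.

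The libraries measure nuclear RNA from the visual cortex of mice of 3 lines, Igf1-E1 fl/fl, Igf1-E23 fl/fl and Igf1-E123 fl/fl, each crossed to VIP flp/wt and here called E1, E23 and E123. Igf1 encodes a growth factor of the insulin family, and each line has both copies of its named Igf1 enhancers floxed and 1 Vip allele that carries the recombinase Flp. At 55 to 60 days of age the cortex received AAV-Syn1-fDIO-mScarlet-KASH-2a-Cre, or the same virus with dCre in place of Cre as its control. The Flp-dependent cassette under the Syn1 promoter restricts the recombinase to neurons with Flp, here VIP interneurons, so the other cells of a Cre animal keep their enhancers. Dark housing began 3 days after the injection and lasted 10 to 12 days, and the light groups were then exposed to light for 1 h. Every group, controls included, therefore shares the floxed alleles, the Vip-Flp allele, a virus and the dark housing. VIP nuclei and total nuclei were sorted separately, 50 to 100 nuclei a library, which gave 48 libraries of each fraction in 24 groups of 3 to 5 replicates. The dCre arm held 13 light and 11 dark libraries in each fraction and the Cre arm 12 and 12. The labels give mice of both sexes, which were not balanced in every group.

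The libraries held 1559883 to 9122515 counts. The 79 genes took 712944 counts in all, 0.152% of the total, and 300 named ribosomal protein pseudogenes, whose reads can be hard to place, took 8064. Vip averaged 5359 CPM (the count scaled to a common library size, with TMM factors) in VIP nuclei and 44.6 CPM in total nuclei, and all 8 markers of VIP interneurons and all 6 of GABAergic neurons were higher in the VIP fraction. Igf1, the gene whose enhancers Cre removes, was lower in Cre than in dCre VIP nuclei, at 451 ± 158 against 694 ± 176 CPM (SD, n = 24 each). Its log2 change was -0.61 ± 0.10 (SE; edgeR adjusted p = 0.000949). Light raised all 10 immediate-early genes listed in dCre VIP and in dCre total nuclei, and 5 and 9 of the 10 without the 4 libraries described next. In the fit of all libraries the biological coefficient of variation was 0.771. The labels number the replicates but name no animals, so p-values measure the spread between these samples. VIP and total libraries with the same number may come from the same animal, so results in the fractions are not known to be independent.

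In both fractions 4 libraries stood apart from the rest. They came from the dark dCre replicates 1 and 2 of E1 and of E123, all of them labelled female. The other dark dCre libraries are of both sexes, and the main fits hold no term for sex. The measure was a length index, the mean log2(CPM + 1) of protein-coding genes spanning at least 100 kb minus that of genes of at most 10 kb, with the ribosomal protein genes left out. In VIP nuclei it lay between 4.25 and 4.27 in these 4 and between 1.25 and 3.26 in the other 44. In total nuclei it lay between 3.70 and 4.17 against 1.46 to 3.03. Ribosomal protein genes are short, with a median span of 3.29 kb against 17.6 kb for the other protein-coding genes, and 75 of the 79 span at most 10 kb. Counts of called genes that fell without these libraries are given with and without them. The labels give no sequencing batch.

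The promoters of the genes were examined to show what the members share beside their function. RefSeq promoter windows on GRCm38.p6, from 250 bases before to 50 after the start, were found for 59 of the 79 genes. The letters CTTTC, on the gene's strand and from 10 bases before to 15 after the start, stood in 15 of 59 (25.4%) against 3.35% of 16455 other protein-coding genes. A C at the listed start followed by 4 pyrimidines stood in 13 of 59 (22.0%) against 2.64%, and the CTTTC letters can lie inside such a run. These start windows of 30 bases show where CTTTC lies (capitals), with the listed start at base 16. In Rplp2 it begins at the listed start, and in Rpl12 it lies after it, at the end of the window.
Rplp2 (chr7:141447636-141447665, plus strand): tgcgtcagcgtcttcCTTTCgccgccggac
Rpl12 (chr2:32961697-32961726, plus strand): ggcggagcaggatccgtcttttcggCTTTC
Rpl13a (chr7:45128731-45128760, minus strand): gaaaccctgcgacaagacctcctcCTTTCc
Rpl28 (chr7:4792950-4792979, plus strand): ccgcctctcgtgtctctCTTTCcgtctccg
Rps26 (chr10:128626492-128626521, minus strand): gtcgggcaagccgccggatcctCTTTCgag
Rps27 (chr3:90213634-90213663, minus strand): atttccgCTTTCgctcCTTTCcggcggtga

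The letters CCGGAAG, a core bound by ETS-family factors such as GABPA, stood on either strand of the whole window in 24 of 59 (40.7%) against 13.3% of the other genes. The Sp1-type letters GGGCGG stood in 35 of 59 (59.3%) against 51.0%, and the TATA box letters TATAAA in 6 of 59 (10.2%) against 14.4%. The letters TGACGTCA, the element that CREB binds, stood in 5 of 59 (8.47%) against 2.61%, and AAGATGGC, which YY1 binds, in 5 of 59 (8.47%) against 3.62%. All of these were searched on both strands. The 150 bases before the start of 3 genes show the ETS-type letters in capitals, as CCGGAAG or, on the other strand, CTTCCGG.
Rps6 (chr4:86857368-86857517, minus strand): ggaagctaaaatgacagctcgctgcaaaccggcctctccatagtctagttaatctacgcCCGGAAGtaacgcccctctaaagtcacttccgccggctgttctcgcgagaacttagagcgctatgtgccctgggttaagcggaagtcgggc
Rpl41 (chr10:128549169-128549318, minus strand): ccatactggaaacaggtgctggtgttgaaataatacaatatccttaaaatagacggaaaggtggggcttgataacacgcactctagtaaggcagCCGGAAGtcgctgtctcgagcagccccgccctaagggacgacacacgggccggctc
Rpl19 (chr11:98026560-98026709, plus strand): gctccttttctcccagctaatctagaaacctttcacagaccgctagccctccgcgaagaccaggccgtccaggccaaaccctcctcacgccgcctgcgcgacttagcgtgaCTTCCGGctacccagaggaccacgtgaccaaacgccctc

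The mean levels of the 76 genes tested in every fit ran from 4.997 CPM for Rps27l, a paralog of Rps27 known as a p53 target, to 67.5 CPM for Rpl4, which helps line the peptide exit tunnel, in VIP nuclei. In total nuclei the range was 4.41 CPM for Rps27l to 70.4 CPM for Rpl4. Per kilobase of exons in VIP nuclei, the highest were the stalk protein gene Rplp1 at 41.3 CPM per kb, Rpl4 at 33.6, Rps15 at 31.0, Rpl19 at 24.9 and Rps29 at 23.98. In total nuclei the 4 highest were Rplp1 at 41.7 CPM per kb, Rpl4 at 35.1, Rps15 at 33.3 and Rpl19 at 25.01. The lowest of the 76 in VIP nuclei per kilobase of exons were Rps19 at 2.27 CPM per kb, Rps20 at 2.45, Rps15a at 2.79, Rpl35a at 2.80 and Rpl18 at 3.89. In total nuclei they were Rps19 at 2.06 CPM per kb, Rps20 at 2.09, Rps15a at 2.51, Rpl35a at 2.94 and Rpl39 at 3.62. Exon length here is the union over annotated transcripts, and with the gene span in its place only 1 of the 5 highest in VIP nuclei stayed among the 5 highest, so the order per kilobase depends on the length used.

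The 3 genes that did not pass the filter on low counts are paralogs known mainly from other tissues, and were at or near 0. Rpl10l, an intronless copy of Rpl10 used in the testis, had no count in 48 of 48 VIP and 48 of 48 total libraries, which allows at most 0.0125 CPM in VIP and 0.0131 CPM in total nuclei. Rpl39l, the testis paralog of Rpl39, had 4 counts over all VIP libraries and 0 over all total libraries. Rpl3l, the paralog of Rpl3 in heart and skeletal muscle, had 22 counts in VIP and 24 in total nuclei and was at 0 in 45 and 42 libraries. Their widely used counterparts averaged 32.9 ± 20.3 CPM (Rpl10), 5.59 ± 4.38 CPM (Rpl39) and 49.6 ± 23.5 CPM (Rpl3) in VIP nuclei (SD, n = 48). Floors cover counting error only, since the reads were amplified by PCR and carry no molecular identifiers.

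The exons of 36 of the 79 genes overlap those of another annotated gene, on the same strand for 26 genes, 23 of them with a small nucleolar RNA. For 18 genes the overlap is with a gene on the opposite strand, among them Rpl12 with Lrsam1 and Rps27a with Clhc1. The library chemistry does not mark the strand, so the levels of these 18 can include reads of the partner.

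The share of counts on these genes varied widely between VIP libraries. It ran from 0.0203% to 0.345%, with a median of 0.147%. In total nuclei it ran from 0.0383% to 0.246%, with a median of 0.165%. The lowest shares belonged to the 4 libraries that stand apart in the length index, at 0.0203% to 0.0289% (VIP) and 0.0383% to 0.0530% (total), below every other library of their fraction (0.0632% and 0.0860% upwards). In these 4 VIP libraries 3 to 14 of the 79 genes had no count, against 2 to 4 in the other 44. The length index and the share were also set side by side further down the scale, in counts that include the 4 libraries. Of the 8 VIP libraries with the highest length index, 6 were among the 8 with the lowest share, and of the 12 highest, 10 were among the 12 lowest. In total nuclei these counts were 8 of 8 and 10 of 12. Both measures come from the same libraries, so this is a description, and which of them leads was not tested. Mitochondrially encoded transcripts took 0.169% to 3.16% of counts in VIP and 0.154% to 1.41% in total nuclei. Their median in the 4 libraries that stand apart was 0.499% against 0.554% in the others (VIP) and 0.183% against 0.324% (total). In dCre VIP nuclei it was 0.578% in light and 0.373% in the dark. What part RNA from outside nuclei has in the levels was not tested.

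**Figure D1:**
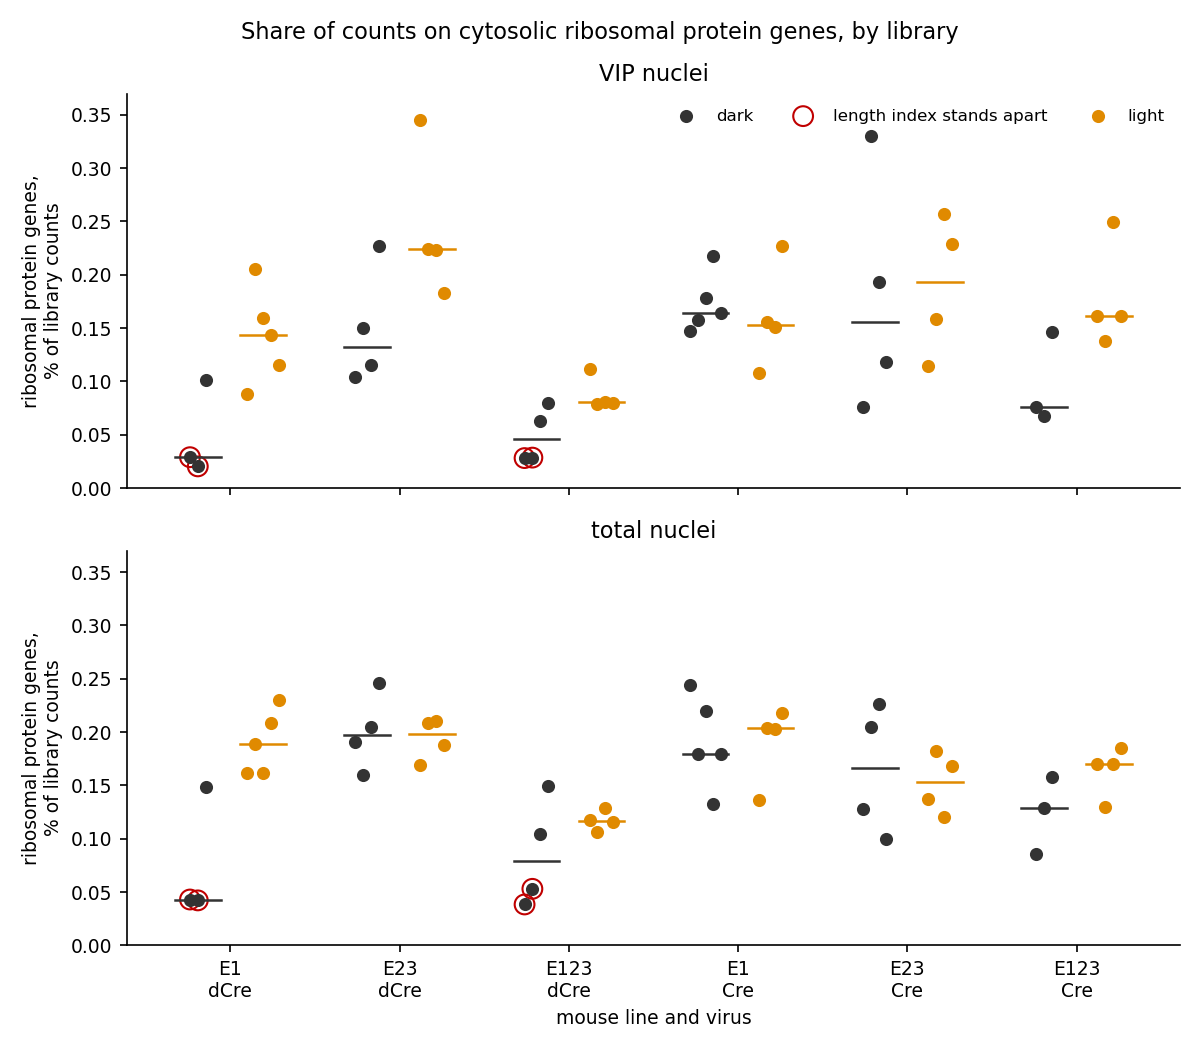
Share of each library's counts on the 79 cytosolic ribosomal protein genes (y axis, percent), by line and virus (x axis), for VIP nuclei (upper panel) and total nuclei (lower panel). Each point is a library, bars are group medians and red rings mark the 4 dark dCre libraries whose length index stands apart, which lie at 0.0203% to 0.0289% in VIP and 0.0383% to 0.0530% in total nuclei.

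**Figure D2:**
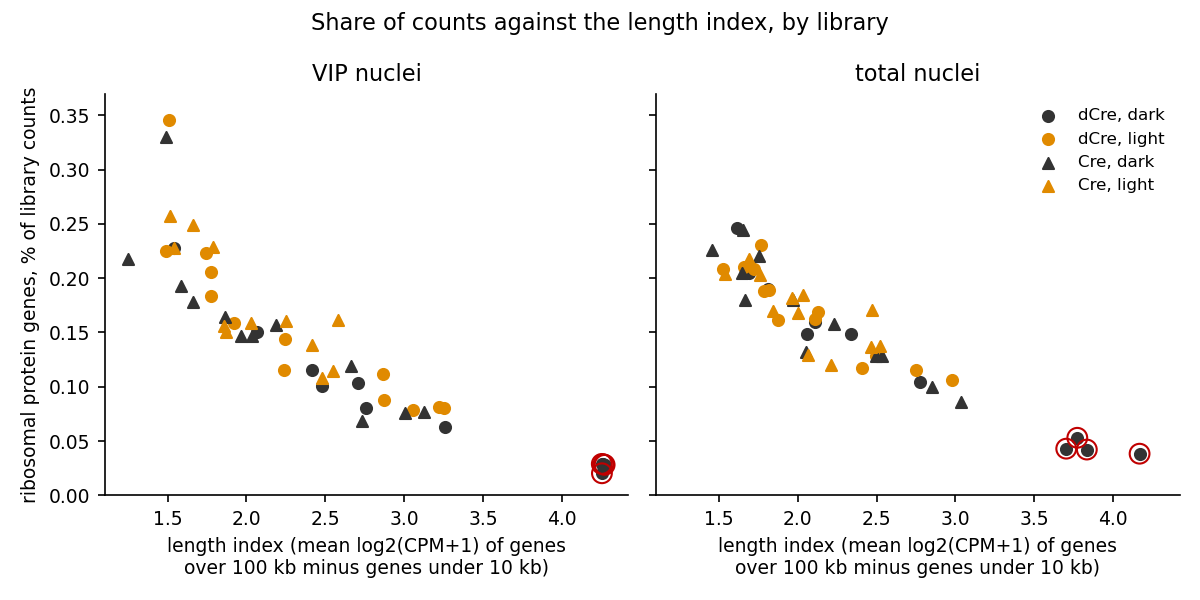
Share of counts on the 79 genes (y axis, percent) against the length index (x axis, difference of mean log2(CPM + 1)) in the 48 VIP and 48 total libraries. Each point is a library, coloured by light and shaped by virus, and the 4 ringed dark dCre libraries of each fraction lie at the highest index and the lowest share.

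The E23 line held the highest VIP libraries, a dCre light library at 0.345% and a Cre dark library at 0.330%. Within a condition the spread was wide. The 4 dark Cre VIP libraries of E23 alone ran from 0.0758% to 0.330%, and the 4 dark dCre ones from 0.104% to 0.227%. Across the 76 genes, mean levels in VIP and total nuclei were alike in order (Pearson r = 0.98 on the log2 scale, over genes that share libraries and so are not independent).

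**Figure D3:**
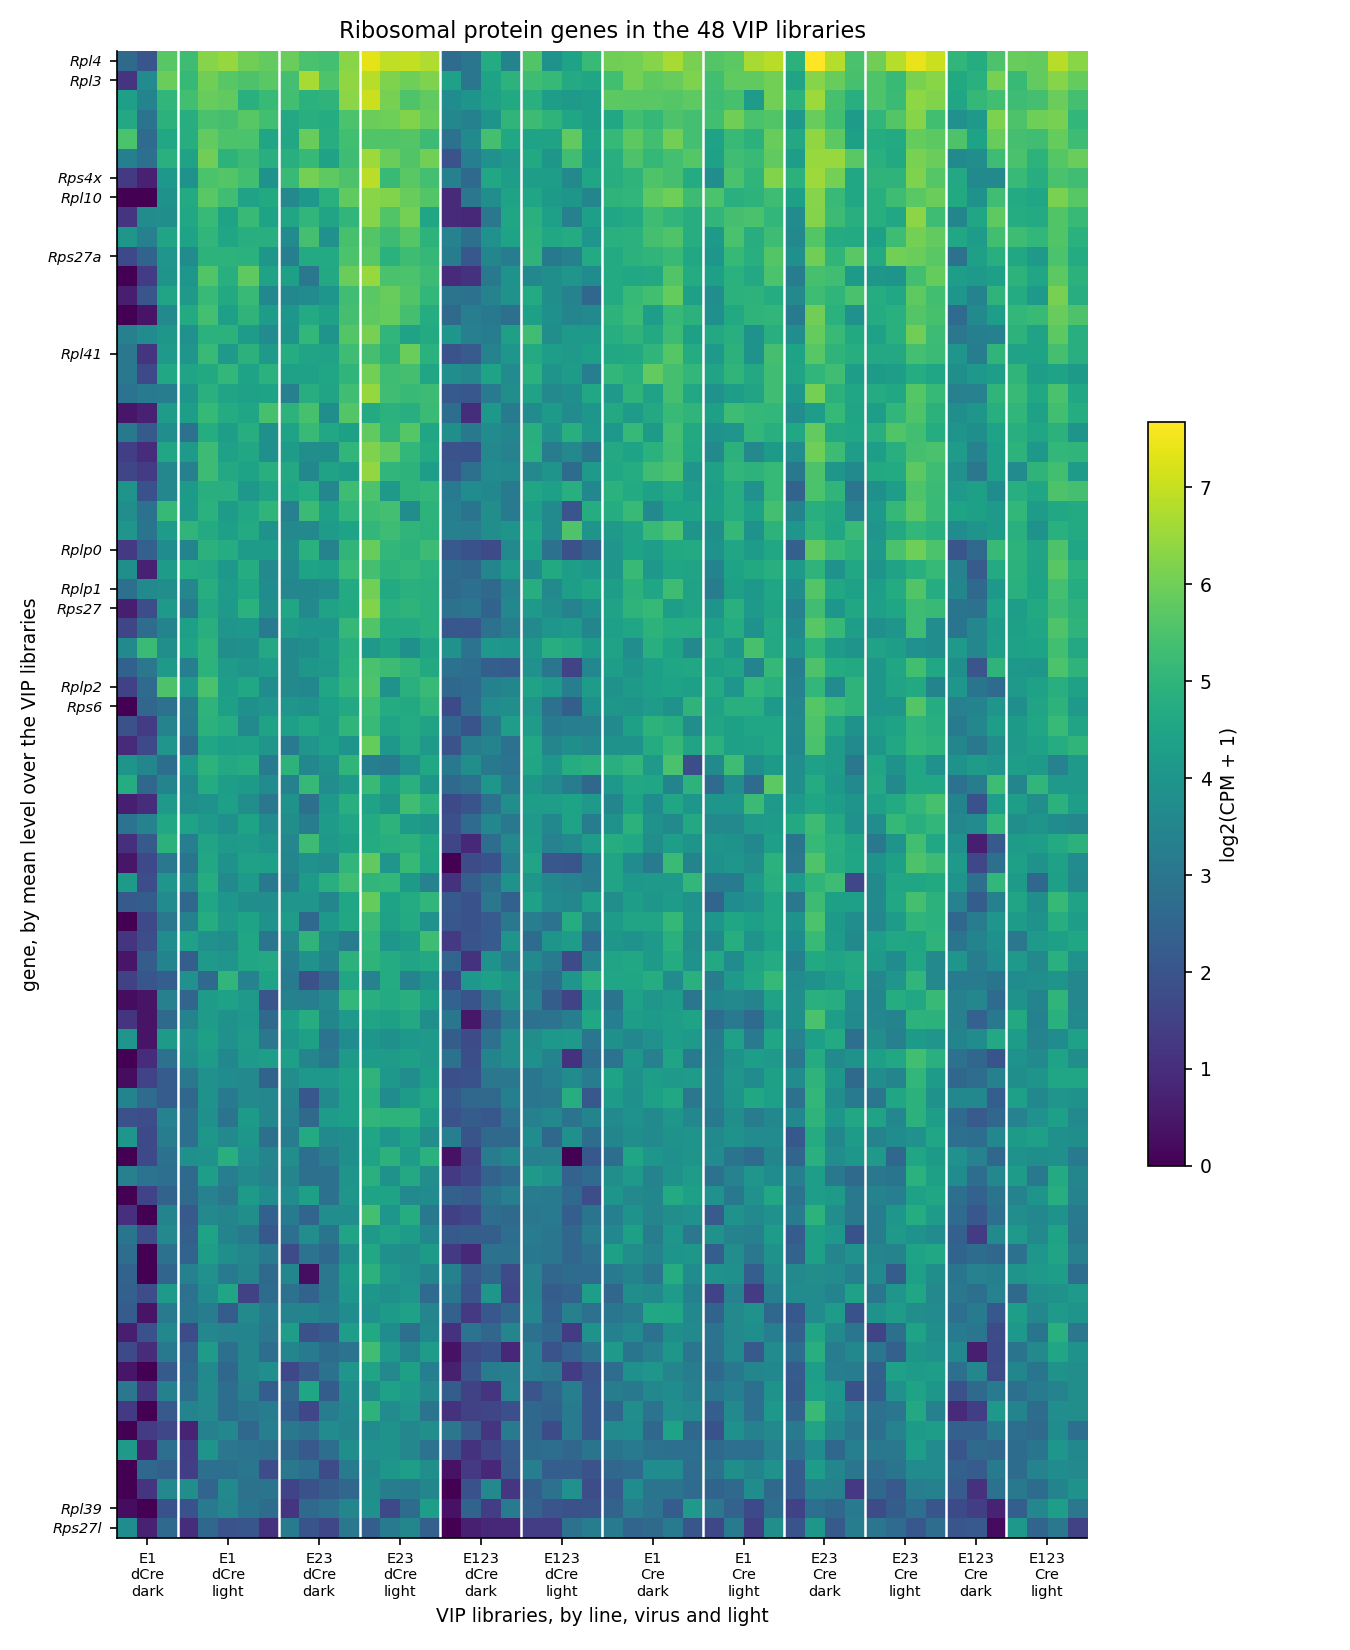
Level of the 76 tested genes (rows, log2(CPM + 1), ordered by their VIP mean) in the 48 VIP libraries (columns, grouped by line, virus and light with white lines between groups). Row names are given for the members with special roles. The first columns of the E1 and E123 dCre dark groups are darker than the rest over much of the height, and the E23 dCre light group is bright.

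Between the fractions, the genes were close to even. None of the 76 was higher in VIP than in total nuclei and 6 were lower, against 14.8% of all 22926 genes tested that were higher and 20.7% that were lower (edgeR quasi-likelihood test, adjusted p under 0.05, n = 48 each). The median log2 difference was -0.11, the same as the median of all genes tested, -0.11, with 20 of the 76 positive. The lower genes were Rpl29 (-0.70 ± 0.18 SE, adjusted p = 0.00107), Rpl5, which with Rpl11 and 5S ribosomal RNA forms a particle that binds Mdm2 (-0.41 ± 0.11, adjusted p = 0.00239), and Rpl10a (-0.45 ± 0.14, adjusted p = 0.00720). The others were the small-subunit gene Rps14 (-0.32), Rpl6 (-0.29) and Rpl12, at the base of the stalk (-0.38), with edgeR adjusted p between 0.0280 and 0.0300. Rpl29 lay at 0 to 21.5 CPM in VIP (median 8.60) and at 3.06 to 24.4 CPM in total nuclei (median 11.7), so the fractions overlapped widely. The stalk genes showed -0.08 ± 0.13 (Rplp1), 0.01 ± 0.14 (Rplp2) and 0.01 ± 0.18 (Rplp0) and were not called. With the length index as a covariate, 1 gene was higher and 4 lower. Without replicate 1 of every group 3 were lower, and without replicate 2 it was 2. The share of all genes called in these other fits is not given. With a block for the replicate number more genes were called, as given in the closing section.

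After light, all 76 genes had a positive log2 change in dCre VIP nuclei and 30 were called higher. No gene was called lower. Of all 20585 genes tested in that comparison, 3.97% were called higher and 2.3% lower. The median change of the 76 was 1.01 on the log2 scale, against 0.01 for all genes tested, with a range from 0.27 (Rpl22) to 1.70 (Rps16). Of 30 small-subunit genes 12 were called, of 43 large-subunit genes 17, and of 3 stalk genes 1. The medians of the subunits were 1.00 (small) and 1.01 (large). By span, 26 of the 60 genes of at most 5 kb were called and 4 of the 16 longer ones, with medians of 1.08 and 0.83.

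Rplp1, a stalk protein that helps bring elongation factors to the ribosome, changed by 1.25 ± 0.28 (SE, adjusted p = 0.00597), a 2.38-fold rise. In E1 its levels were 6.08, 11.7 and 12.8 CPM in the dark and 10.8, 26.4, 18.1, 23.4 and 12.3 CPM in light. In E23 they were 10.6, 11.1, 12.5 and 24.96 CPM in the dark and 64.3, 24.8, 28.4 and 27.0 CPM in light. In E123 they were 5.25, 5.99, 5.25 and 9.53 CPM in the dark and 26.2, 11.2, 18.6 and 21.8 CPM in light. Rplp1 was thus higher in every light library of E123 than in any of its dark ones, while the E1 groups overlapped and in E23 the lowest light library, at 24.8, fell just under the highest dark one. Of the stalk partners, Rplp0 changed by 1.14 ± 0.38 (adjusted p = 0.0564) and Rplp2 by 0.73 ± 0.34 (adjusted p = 0.184), and neither was called.

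Rpl4, the most abundant of the genes in CPM, changed by 1.42 ± 0.32 (SE, adjusted p = 0.00677). Its dark levels were 5.34, 3.16 and 49.7 CPM in E1, 60.0, 43.6, 40.2 and 79.0 CPM in E23 and 5.54, 6.99, 25.4 and 10.1 CPM in E123. Its light levels were 37.99, 76.9, 86.9, 63.8 and 55.7 CPM in E1, 163, 120.4, 123.3 and 106 CPM in E23 and 47.1, 14.5, 21.0 and 34.8 CPM in E123. The 4 lowest values are those of the libraries that stand apart, and all the E23 light libraries lie above all the E23 dark ones. Other genes with small p were Rpl13 (1.29 ± 0.29, adjusted p = 0.00680), Rps29 (1.35 ± 0.32, adjusted p = 0.00885) and Rps3, which lines the mRNA entry channel (1.21 ± 0.29, adjusted p = 0.00919). For none of the 30 called genes did the light and dark libraries separate fully.

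Among the genes followed for their special roles, Rpl10, whose protein joins late and makes the large subunit able to pair with the small one, changed by 1.53 ± 0.41 (adjusted p = 0.0191). Its dark libraries ran from 0 through a median of 12.5 to 54.7 CPM and its light libraries from 10.5 through 24.6 to 77.4 CPM. Rps27a, made as a fusion with ubiquitin, changed by 1.182 ± 0.32, Rpl41, the shortest ribosomal protein, by 1.12 ± 0.30 and Rps27 by 1.12 ± 0.33, all called. Not called were Rps6, the substrate of the S6 kinases (1.07 ± 0.35, adjusted p = 0.0559), the X-linked Rps4x (1.00 ± 0.33, adjusted p = 0.0587), Rpl3, at the peptidyl transferase centre (0.63 ± 0.29), Rpl39 (1.11 ± 0.54) and Rps27l (0.73 ± 0.56). Their intervals are wide, and a miss of the threshold does not show that they differed from the called genes.

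These calls did not hold without the libraries that stand apart. Leaving out all 4 also cut the dark arm from 11 to 7 libraries and left E1 with 1 dark library. The part of the smaller arm in the lost calls was not tested. Without the dark dCre replicates 1 and 2 of E1 and E123, 0 of the 77 genes then tested were called and the median change was 0.59, with 73 positive. Without the E1 pair alone it was 0 called with a median of 0.71, and without the E123 pair alone 0 called with a median of 0.89. With the length index as a covariate, 0 were called and the median was 0.38, with 66 positive. Beside these counts of 0, 46 of all genes tested were still called without the 4 libraries and 139 with the covariate. With all libraries 817 of all 20585 genes tested were called higher and 473 lower. Most calls over all genes were thus lost as well, and the counts of 0 do not set the ribosomal protein genes apart. With either pair alone left out, the number of all genes called is not given, so those counts are a description only. For Rplp1 the change was 1.05 without the 4 libraries and 0.60 with the covariate, and for Rpl4 0.77 and 0.58. Leaving out 1 library at a time moved the count to 13, 11 and 56 for dark replicates 1, 2 and 3 of E1, to 18 for dark replicate 1 of E123 and to 19 for its light replicate 1. Here and below, counts with 1 library left out are given without the share of all genes called in the same refit. They do not set these genes apart from other genes. The part that the make-up of these libraries has in the change with light was not tested apart from these fits. Fewer cells of one kind and less RNA per cell cannot be told apart in such pools.

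**Figure D4:**
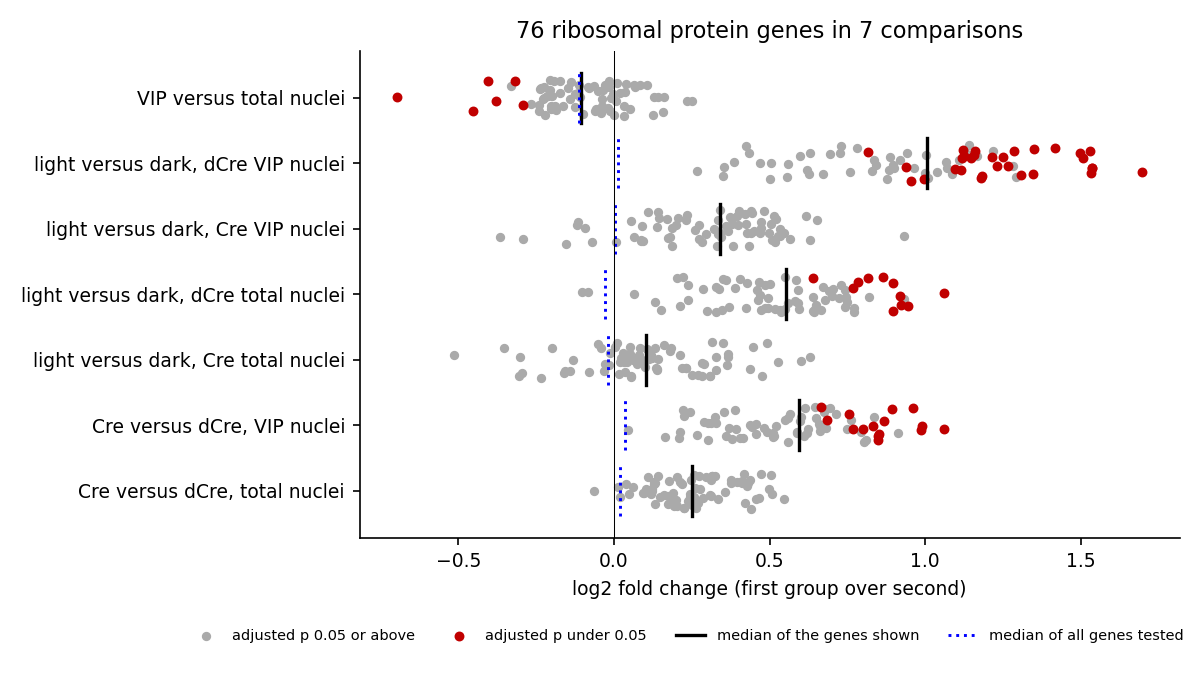
Log2 fold change (x axis, first group over second) of the 76 tested genes in 7 comparisons (rows). Each point is a gene, red where its edgeR adjusted p is under 0.05, the black bar is the median of the 76 (1.01 for light in dCre VIP nuclei) and the dotted blue bar the median of all genes tested.

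Markers of other cells were examined in the same comparison, in which 3.97% of all genes were called higher. In VIP nuclei of dCre mice, 3 of 7 astrocyte markers, 2 of 8 microglia markers, 1 of 8 oligodendrocyte markers, 1 of 10 excitatory markers and 0 of 6 endothelial or mural markers were called higher after light, with medians of 1.76, 1.43, 1.35, 0.99 and 1.71. Of the GABAergic markers 4 of 6 were called higher (median 0.60). Without the 4 libraries that stand apart 0 markers of any of these 6 lists were called, and with the length index as a covariate 2 GABAergic markers were. The summed level of the astrocyte markers was 241 to 383 CPM in the dark and 242 to 1508 CPM in light. That of the oligodendrocyte markers was 71.1 to 356 CPM in the dark and 119 to 2002 CPM in light, and that of the microglia markers 83.8 to 204 CPM and 93.8 to 229 CPM. The excitatory markers summed to 72.3 to 782 CPM in the dark and 85.4 to 694 CPM in light, and the endothelial and mural markers to 0.18 to 16.2 CPM and 0 to 22.8 CPM. In both light conditions the median library had no count of the endothelial markers Cldn5 and Flt1 or of the oligodendrocyte lineage markers Pdgfra and Olig2, and in the dark also none of C1qb, Tmem119 and Olig1. Their part in the change of the ribosomal protein genes was not tested.

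In Cre VIP nuclei, 0 of the 76 genes were called after light by edgeR and 0 by DESeq2, against 0.267% of all genes called higher and 0.0826% lower, and 3 had an unadjusted p under 0.05. The median change was 0.34, with 69 genes positive. Rplp1 showed 0.32 ± 0.27, Rplp0 0.43 ± 0.36 and Rpl10 0.19 ± 0.38. Rplp1 lay at 5.12 to 48.4 CPM in the dark (median 20.2) and at 8.37 to 47.4 CPM in light (median 23.7), so the ranges nearly coincided. None of the 4 libraries that stand apart is in this comparison. Except for differences of the light response, counts at an unadjusted p under 0.05 are given without the share of all genes. Such counts do not set these genes apart from other genes.

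The difference of the light response between Cre and dCre VIP nuclei was not called for any of the 76 genes, nor by DESeq2, with 0.00486% of all genes called as larger in Cre. Its median was -0.70 and 74 of the genes were negative. An unadjusted p under 0.05 was found for 19 of the 76 and for 1911 of all 20585 genes tested. The smallest p belonged to Rpl13 (-1.08 ± 0.40, adjusted p = 0.403). Without dark dCre replicate 3 of E1, 9 genes were called, all negative. That library has the highest share of its group, at 0.101% against 0.0203% and 0.0289% in the pair that stands apart.

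In total nuclei of dCre animals, 11 of the 76 genes were called higher after light and 0 lower, against 3.42% of all 21213 genes called higher. The median change was 0.55, against -0.03 for all genes tested, and 74 genes were positive. Rpl6, a large-subunit protein, had the smallest p (0.90 ± 0.19, adjusted p = 0.00186). In the dark its levels were 16.6, 14.8 and 35.8 CPM in E1, 45.4, 49.0, 35.7 and 36.8 CPM in E23 and 9.95, 16.7, 34.1 and 50.4 CPM in E123. In light they were 53.9, 52.2, 56.3, 53.1 and 65.4 CPM in E1, 46.3, 74.8, 64.8 and 61.9 CPM in E23 and 45.3, 48.9, 57.7 and 41.6 CPM in E123. Every E1 light library exceeded every E1 dark one, and the E23 and E123 groups overlapped. Next came Rpl10 (0.94 ± 0.22, adjusted p = 0.00539), Rpl12 (0.92 ± 0.22, adjusted p = 0.00622), Rps9 (1.06 ± 0.26, adjusted p = 0.00801), Rpl30 (0.92 ± 0.25, adjusted p = 0.0186) and Rps4x (0.86 ± 0.25, adjusted p = 0.0267). The stalk genes Rplp0, Rplp1 and Rplp2 changed by 0.24 ± 0.32, 0.58 ± 0.28 and 0.65 ± 0.22 and were not called.

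These calls too were lost with other fits. None of the 76 was called without the 4 libraries that stand apart (median 0.14), without the E1 pair (0.29) or with the length index as a covariate (0.19), and 1 was called without the E123 pair (0.41). Without the 4 libraries, 157 of all genes tested were still called, against 726 higher and 481 lower of 21213 with all libraries. Most calls over all genes were thus lost here too. The number of all genes called without either pair alone or with the covariate is not given, so those counts are a description only. Leaving out 1 library gave 4 calls for each of dark replicates 1 and 2 of E1 and 36 for its dark replicate 3, and 5, 6 and 25 for dark replicates 1, 2 and 4 of E123. It gave 7 and 6 calls for dark replicates 1 and 2 of E23, and 7 for light replicate 5 of E1, light replicate 3 of E23 and light replicate 3 of E123 each. The difference of the light response between VIP and total dCre nuclei had a median of 0.45. No gene of the 76 was called for it, by edgeR or DESeq2, with 0% of all genes called in either direction. An unadjusted p under 0.05 was found for 7 of the 76 and for 1361 of all 22926 genes tested. In Cre total nuclei the median change was 0.10 and 0 were called, by edgeR or DESeq2, with 1 gene at an unadjusted p under 0.05 and 1.09% of all genes called higher.

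**Figure D5:**
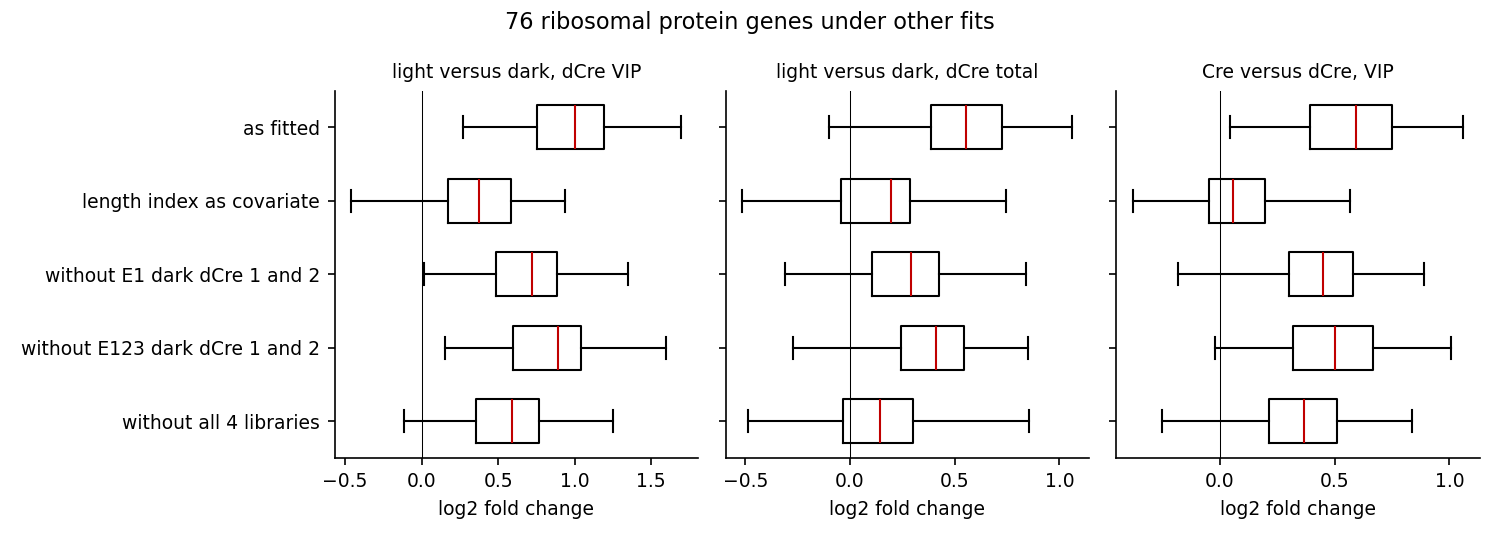
Log2 fold change (x axis) of the 76 genes as fitted, with the length index as a covariate and without the dark dCre replicates 1 and 2 of E1, of E123 or of both (rows), in 3 comparisons (panels). Boxes span the quartiles with the median in red and whiskers reach the lowest and highest gene. For light in dCre VIP nuclei the median moves from 1.01 to 0.38 with the covariate and to 0.59 without the 4 libraries.

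Line by line, the dCre light response was called for these genes in E1 alone. In E1 VIP nuclei 13 of the 76 were higher, against 2.68% of all genes, with a median of 1.29. In 9 of the 13 all light libraries exceeded all dark ones. These 13 were picked by their p, and the dark arm is 3 libraries that include the pair that stands apart. The share of all genes that separate in this way is not given, so the count of 9 is a description only. Rpl19, a large-subunit protein, had the smallest p (2.69 ± 0.70, adjusted p = 0.0211), with 0, 0.316 and 11.7 CPM in the dark and 24.9, 40.4, 19.0, 30.6 and 17.9 CPM in light. Other called genes with small p were Rps4x, Rps9, Rpl27 and Rpl31, at 2.31 to 2.64. In E23, which holds none of the libraries that stand apart, the median was 0.69 and 0 were called, with 73 positive and 11 at an unadjusted p under 0.05. That comparison had 4 libraries an arm and 0.034% of all genes called higher and 0.0146% lower. In E123 the median was 0.87 with 73 positive, 0 called and 22 at an unadjusted p under 0.05, against 0.00972% of all genes. DESeq2 called 0 of the 76 in E23 and 0 in E123.

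Without the pair of E1 libraries that stand apart, the E1 count in VIP nuclei fell from 13 to 0 and the median to 0.45, on the 1 dark library left, which is assumed to vary like the other groups. Leaving out dark replicate 1 or 2 of E1 alone gave 0. Leaving out dark replicate 3, so that only the pair that stands apart was left in the dark arm, gave 44. Light replicates 2, 3 and 5 gave 1, 1 and 7. In E1 total nuclei 18 genes were called higher, against 2.22% of all genes, with a median of 1.17 and all 76 positive, led by Rpl12 (2.25 ± 0.42, adjusted p = 0.00488), Rpl30, Rpl9, Rps3, Rpl14 and Rpl8. Rpl12 lay at 5.21, 4.41 and 6.67 CPM in the dark and at 28.7, 24.7, 20.1, 22.6 and 31.9 CPM in light, so for this gene all 3 dark libraries were low and the groups did not overlap. The count fell to 0 without that pair (median 0.39) or without either of its libraries, rose to 49 without dark replicate 3 and fell to 6 without light replicate 5. In E23 total nuclei the median was -0.05 and in E123 0.38, with 0 called in both, by edgeR or DESeq2, against 0.146% and 0.325% of all genes called higher and 0.033% and 0.0471% lower, and with 1 and 12 at an unadjusted p under 0.05. Without dark replicate 4 of E123, 2 genes were called there.

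No gene of the 76 was called for a difference of the dCre light response between lines. In VIP nuclei the median differences were 0.46 (E1 minus E23), 0.35 (E1 minus E123) and -0.18 (E23 minus E123). Of all genes, 0%, 0.034% and 0% were called as positive and 0%, 0.0194% and 0% as negative. At an unadjusted p under 0.05 were 11, 13 and 1 of the 76, and 2336, 2314 and 988 of all 20585 genes tested. DESeq2 called 0 of the 76 in each. In total nuclei the median differences were 1.183, 0.85 and -0.44. Of all genes, 0.00943%, 0% and 0% were called as positive and 0.0141%, 0% and 0% as negative. At an unadjusted p under 0.05 were 34, 13 and 5 of the 76, and 3054, 1640 and 1418 of all 21213 genes tested. DESeq2 called 3 of the 76 in the first of these differences and 0 in the others. Without dark replicate 3 of E1, 14 and 18 genes were called for E1 minus E23 and E1 minus E123 in the VIP fraction, and 32 and 12 in total nuclei. The same omission gave 5 calls, all negative, for Cre minus dCre in total nuclei. With all libraries the median there was -0.41 and 0 were called, by edgeR or DESeq2. An unadjusted p under 0.05 was found for 16 of the 76 and for 1894 of all 21213 genes tested.

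Between viruses, 15 of the 76 genes were called higher in Cre than in dCre VIP nuclei and 0 lower, against 2.31% of all genes called higher. The median was 0.59, against 0.04 for all genes tested, and all 76 were positive. Rpl4 had the smallest p (0.99 ± 0.22, adjusted p = 0.0175), with 3.16 to 163 CPM in dCre (median 45.4) and 25.8 to 203 CPM in Cre (median 66.4). Rps27a (0.89 ± 0.22, adjusted p = 0.0219), Rps15, close to the decoding centre (0.76 ± 0.20, adjusted p = 0.0308), Rplp0 (0.96 ± 0.26, adjusted p = 0.0318) and Rpl10 (0.99 ± 0.28, adjusted p = 0.0371) were among the others called. Rps6 was called here as well (0.83 ± 0.24, adjusted p = 0.0438), Rplp1 was not (0.51 ± 0.19, adjusted p = 0.111), and Rplp2 stood at 0.05 ± 0.23. In each of these genes the ranges of the 24 Cre and 24 dCre libraries overlapped. This comparison and that of light in dCre nuclei share the dark dCre libraries, so the calls of one are no independent support for the other.

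Without the 4 libraries that stand apart 0 genes were called (median 0.37), as without the E1 pair (0.45) or the E123 pair (0.50), and with the length index as a covariate 0 were called and the median was 0.06. The number of all genes called in these refits is not given, so the lost calls do not set the ribosomal protein genes apart. Of the 48 libraries, 26 moved the count by more than 1.5 times when left out. Dark dCre replicate 3 of E1 raised it to 42 and dark dCre replicate 4 of E123 to 25. It fell to 1 without dark Cre replicate 3 of E123. It fell to 2 without light Cre replicate 3 or dark dCre replicate 2 of E123, dark dCre replicate 1 or 2 of E1, or dark Cre replicate 2 or light Cre replicate 3 of E23. It was 3 without dark dCre replicate 1 of E23, and 4 without dark dCre replicate 1 of E123, light Cre replicate 4 of E1 or light dCre replicate 3 of E23. It was 5 without light dCre replicate 1 of E1, dark Cre replicate 3 of E23 or light dCre replicate 4 of E23. It was 6 without light dCre replicate 2 of E123, dark Cre replicate 4 of E1, light Cre replicate 4 of E23 or dark dCre replicate 3 of E23. It was 8 without light Cre replicate 2 of E1 or light dCre replicate 2 of E23, and 9 without dark Cre replicate 2 of E123, light dCre replicate 3 of E123, light dCre replicate 5 of E1 or dark dCre replicate 2 of E23. In total nuclei, whose cells mostly keep their enhancers, 0 of the 76 were called between viruses, by edgeR or DESeq2, against 0.0189% of all genes called higher. The median was 0.25 with 75 positive and 18 at an unadjusted p under 0.05, and 9 were called without dark dCre replicate 3 of E1.

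Other genes of the ribosome and of translation were taken from fixed lists. For light in dCre VIP nuclei, where 3.97% of all genes were called higher and 2.3% lower, the counts below hold with all libraries: without the 4 that stand apart, or with the length index as a covariate, 0 genes of any of the 6 lists were called. Of 8 cytosolic ribosomal or ribosome-associated protein genes whose symbols fall outside the rule, 3 were higher after light in dCre VIP nuclei, with a median of 1.01. Among them were Fau, which encodes a ubiquitin-like fusion with a small-subunit protein (1.32 ± 0.36, edgeR adjusted p = 0.0235), and Rps3a1 (1.05 ± 0.32, adjusted p = 0.0349). Of 19 translation factors and related messages, 5 were higher and 0 lower, with a median of 0.49, among them the elongation factor genes Eef2 (1.38 ± 0.30) and Eef1b2 (1.08 ± 0.33) and the initiation factor gene Eif3f (1.31 ± 0.38). Of 39 ribosome assembly and RNA polymerase I genes, 4 were higher, with a median of 0.31, among them Tsr1 (0.96 ± 0.28), Nop10 (0.98 ± 0.30) and Sbds (1.00 ± 0.31). Of 17 genes of the mTORC1 pathway and of the control of pyrimidine-tract messages, 0 were higher and 1 was lower, Rptor, the subunit that binds mTORC1 substrates (-0.57 ± 0.17, adjusted p = 0.0341), with a median of 0.03.

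Among 78 mitochondrial ribosomal protein genes 3 were higher (median 0.55), with Mrpl4, Mrps17 and Mrps6 called. Among 90 tested nuclear genes of oxidative phosphorylation 27 were higher (median 0.75), led by Atp5d (1.3995 ± 0.26), Cox4i1 (1.42 ± 0.29) and Cox7a2 (1.44 ± 0.32). In dCre total nuclei, where 3.42% of all genes were called higher, 1 of 8, 2 of 19, 3 of 39, 5 of 78 and 15 of 88 genes were higher, in the same order of lists without the mTORC1 list, in which 1 of 17 was higher (Rheb, 0.86 ± 0.15) and 1 lower (Pdcd4, -0.66 ± 0.16). Without the 4 libraries 0 of these were called, and with the length index as a covariate 2 of 19, 1 of 78, 2 of 88 and 1 of 17 were, all higher. In Cre VIP nuclei 1 mitochondrial ribosomal protein gene was the single call over these 6 lists. In Cre against dCre VIP nuclei, where 2.31% of all genes were called higher, 1 of 8, 4 of 19, 2 of 39, 5 of 78 and 17 of 90 were higher and 0 of 17 of the mTORC1 list. All these counts were 0 without the 4 libraries or with the length index as a covariate. Between the fractions, 13 of 78 mitochondrial ribosomal protein genes and 9 of 39 assembly genes were lower in VIP nuclei and 3 and 1 higher, where 20.7% of all genes were lower and 14.8% higher.

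The promoter letters were set beside the calls of light in dCre VIP nuclei, as a description. CTTTC near the start stood in 4 of the 20 called genes with a promoter window and in 10 of the 36 others tested. CCGGAAG stood in 7 of 20 and 16 of 36, TGACGTCA in 3 of 20 and 2 of 36 and TATAAA in 0 of 20 and 6 of 36. No difference between these shares was tested.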

How the data were processed

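Nuclear RNA of sorted VIP and total nuclei was sequenced as poly(A)-primed cDNA from 50 to 100 nuclei a library (17 PCR cycles, no strand, no molecular identifiers). The authors deposited raw read counts per gene; the submitters' processing notes name cutadapt 1.18, STAR 2.5.3a, HOMER 4.9.1 and mm10, and per the labels samples were grouped by line, virus, light and fraction. Of 55335 identifiers, 55154 matched GENCODE M21; the other 181 hold 0.0225% of counts. Of 148 replicate pairs, 0 were identical.

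Counts were fitted with edgeR 4.0.16 (R 4.3.3; TMM, filterByExpr, robust quasi-likelihood, 1 coefficient per group) over all 96 libraries or the 48 of a fraction, with Benjamini-Hochberg adjustment over all genes tested and a threshold of 0.05. SE is the log2 change over the square root of F. Levels are CPM on TMM sizes. The length index used 2117 long and 2056 short genes. Alternatives were DESeq2 1.42.0, other scaling and filters, sex, the length index, a replicate block and left-out libraries. Refits without 1 library or 1 replicate number kept the full fit's dispersion trend. Those without the 4 libraries or a pair estimated it anew. Scripts were tested on simulated data. The members, lists and tests were chosen with earlier results of these data known. Named genes are 15 members with known special roles or paralogs, up to 6 called members a direction with the smallest p in each comparison, the 5 highest and 5 lowest per kilobase, up to 3 called genes of each list, and the check genes; a few others (Rpl22, Rps16, and the smallest p of a difference) were chosen after their values were seen. Some genes that this rule names are not reported here.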

Additional observations from a re-analysis of the deposited data

Results flagged for a closer look

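The share of counts on the ribosomal protein genes in light dCre replicate 1 of E123, VIP nuclei, was 0.112%, while the lowest of its group of 4 was 0.0784% and the group's median 0.0806%. It lies farther from the others than Dixon's 95% limit allows. It was the single value past the limit in 40 tests, which covered this share and the length index in each group of 4 or 5 libraries, and chance passes about 1 test in 20. Without this library, 19 of the genes were called higher after light in dCre VIP nuclei in place of 30.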

How the results depend on the processing

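The median change stayed positive under each alternative run for light in dCre nuclei averaged over the 3 lines and for Cre against dCre. It was not positive in each line, being -0.05 in E23 total nuclei with all libraries. The calls did not hold. Counts of ribosomal protein genes called in this section are given without the share of all genes called in the same fit. Such counts do not set these genes apart from other genes. With the length index as a covariate, without the 4 libraries and without the E1 pair, 0 genes were called for light in dCre VIP, dCre total, E1 dCre VIP and E1 dCre total nuclei and for Cre against dCre VIP nuclei. Without the E123 pair 0 were called for light in dCre VIP nuclei and for Cre against dCre VIP nuclei, and 1 in dCre total nuclei. Leaving out either pair alone was chosen after seeing the data. DESeq2 called 23 for Cre against dCre VIP nuclei, 23 for E1 VIP, 28 for E1 total nuclei and 3 for E1 minus E23 in total nuclei. Scaling by total counts alone gave 7 in dCre total nuclei, and no filter on low counts gave 4 for E1 minus E23 and 1 for E1 minus E123 in total nuclei. Leaving out 1 library gave 11 to 56 calls for light in dCre VIP, 4 to 36 in dCre total, 0 to 44 in E1 VIP, 0 to 49 in E1 total and 0 to 2 in E123 total nuclei, and 1 to 42 (VIP) and 0 to 9 (total) for Cre against dCre. For differences of the light response it gave 0 to 9 (Cre minus dCre, VIP), 0 to 5 (total), 0 to 14 (E1 minus E23, VIP), 0 to 32 (total), 0 to 18 (E1 minus E123, VIP) and 0 to 12 (total). Leaving out a replicate number gave 2 to 7 between fractions. The replicate block gave 11 between fractions, 37 for light in dCre VIP and 13 in dCre total nuclei. The labels do not say whether the numbers pair samples. Deviations of same-numbered VIP and total libraries correlated above 0.1 in 19 of 48 pairs, and the sex label was the same in 48 of 48. Of the 48, 31 correlated best with their own number, and with 3 to 5 libraries a group chance alone would give fewer. The main fit between fractions takes the fractions as separate samples. Of 1814 values of named genes recomputed under the alternatives other than leaving out 1 replicate, 147 lost and 17 gained their call, 94 changed sign while not called and 0 while called. The cause of these changes was not tested. Depth of 1559883 to 9122515 counts limits the genes near 5 CPM. With the length index as a covariate, 4 of the 10 immediate-early genes were called higher after light in dCre VIP nuclei and 10 in dCre total nuclei.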
